A study of Rattus norvegicus with 35 samples.

Results

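Both sides of the nose were measured in the same animal for 8 rats, 4 adult and 4 old, which gave 8 pairs of arrays, 16 of the 35 arrays of the experiment. A pair consists of the arrays whose titles end in A and in B for 1 rat. The question put to them was which transcripts, and which olfactory receptor (OR) transcripts, differ between the sides of 1 animal, and whether any difference recurs from rat to rat. All 8 were male Brown Norway rats, an inbred strain. The adult rats were 9 weeks old, and the old rats, 22 months old, had lived in the animal house since the age of 3 weeks. No agent or odorant treatment is given for either group. The skull was cut sagittally and the olfactory epithelium of each side was removed and extracted on its own, so that a sample holds whatever tissue was lifted with that side. The labels say neither whether A or B is the left side nor whether the letter means the same side in every rat, so a mean of A minus B over rats is a mean over letters. The 19 newborn rats of the same experiment gave 1 array each and have no second side to compare.

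The olfactory epithelium lines the back of the nasal cavity. Its sensory neurons express OR genes, G-protein coupled receptors that bind odorants, and a mature neuron transcribes essentially a single OR gene of a very large family. The neurons that use a given OR gene are scattered within a zone of the epithelium. Class I ORs, the family shared with fish, are found mainly in the dorsal zone, and class II ORs in all zones. Bowman's glands, sustentacular cells, basal cells, nerve bundles and, beneath the epithelium, bone and blood vessels lie next to the neurons, and the olfactory bulb lies behind the bony plate at the back of the cavity. In samples of whole tissue, fewer cells of a type and less RNA per cell cannot be told apart.

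The array carried 41012 probes of 60 bases, of which 1112 bear the name of an OR gene (Olr) and stand for 1107 genes. Signals were divided by the median of their array. A level below is therefore a multiple of the array median, and a difference is the log2 of side A over side B, so that 1 means 2-fold higher on side A. A probe counted as expressed when it was above background on at least 6 of the 8 adult or of the 8 old arrays, whichever the side. This left 27142 probes, among them 729 OR probes, of which 62 were class I, 627 class II and 40 of no class in the reference table. The array medians lay between 82.4 and 164 for adult and between 37.2 and 55.3 for old rats, and between 25273 and 28020 probes per array were above background. The array of rat 16 side B had the fewest of these and 17.1% of its signals at or below 0, where the 16 arrays ranged from 11.5% to 17.3%. Sides A and B lay at different positions of the slide in every rat, so side and position cannot be told apart. Rats 15 and 16 shared a slide, as did rats 13 and 14, 17 and 18, and 19 and 20. Rats 15 and 16 were scanned on 1 day, rats 13 and 14 on another and the old rats on the last of 3 days, so slide and scan day cannot be told apart in adult rats. Old and adult arrays also differ in the release of the software that extracted the signals from the scans, which cannot be told apart from age.

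The probes of 8 OR genes are shown because these genes, among the OR probes above background on all 16 arrays, varied most between the sides of a rat. Olr89 and Olr103 belong to class I and the other 6 to class II. Each line gives the 60 bases as the array carries them, 5′ to 3′, and the capitals mark the longest run of bases that the probe shares with the probe of another OR gene.
Olr89: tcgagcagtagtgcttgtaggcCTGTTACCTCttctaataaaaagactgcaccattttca
Olr103: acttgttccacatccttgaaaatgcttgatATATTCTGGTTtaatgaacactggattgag
Olr481: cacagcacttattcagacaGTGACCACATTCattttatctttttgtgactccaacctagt
Olr775: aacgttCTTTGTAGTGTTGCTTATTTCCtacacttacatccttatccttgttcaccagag
Olr754: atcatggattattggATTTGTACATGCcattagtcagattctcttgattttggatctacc
Olr1516: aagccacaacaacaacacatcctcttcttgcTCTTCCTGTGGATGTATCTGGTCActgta
Olr1626: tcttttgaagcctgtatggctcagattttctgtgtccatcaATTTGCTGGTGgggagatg
Olr1645: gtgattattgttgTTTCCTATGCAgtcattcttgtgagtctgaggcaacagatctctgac
In build rn3, as the files give it, Olr89 lies on chromosome 1 at 161120073 to 161120132, Olr103 on chromosome 1 at 161284881 to 161284940, Olr481 on chromosome 3 at 69234715 to 69234774 and Olr754 on chromosome 3 at 96855607 to 96855666. Olr775 lies on chromosome 3 at 97321613 to 97321672, Olr1516 on chromosome 10 at 61568743 to 61568802, Olr1626 on chromosome 15 at 26476791 to 26476850 and Olr1645 on chromosome 15 at 27984740 to 27984799. Olr481, Olr775, Olr1626 and Olr1645 are on the minus strand. The shared run was 10 bases in Olr89, 11 in Olr103, Olr1626 and Olr1645 and 12 in Olr481 and Olr754, but 22 in Olr775, with Olr769, and 24 in Olr1516, with Olr1515. Over the 1112 OR probes its median was 12 bases and its longest 38, and 98 probes (8.81%) shared 20 bases or more. A signal of such a probe may include the transcript of the related gene. At least 1 reading frame was open over the whole probe in 1105 of the 1112.

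No probe was called different between side A and side B over the 8 rats. In the limma fit with the rat as a block, 0 of 27142 probes (0.0%) reached an adjusted p under 0.01, the threshold of the study, with 1797 (6.62%) at an unadjusted p under 0.05 and a smallest adjusted p of 0.474. Adult rats taken apart also gave 0 calls (0.0%), with 2709 probes (9.98%) at an unadjusted p under 0.05 and a smallest adjusted p of 0.129 in limma. Old rats gave 0 calls (0.0%), with 1065 probes (3.92%) at an unadjusted p under 0.05 and a smallest adjusted p of 0.0991 in limma. The difference between the side effects of old and adult rats gave 0 calls (0.0%) as well, with 1619 probes (5.96%) under 0.05 and a smallest adjusted p of 0.713 in limma. The methods' t-test, run as a paired test within rat, and limma without the block gave 0 calls in each of these 4 comparisons. Leaving out 1 old rat gave 1 call in old rats without rat 17, without rat 18 and without rat 19, of 3 different probes, none of them an OR probe: an unnamed one, H31278 and RGD1565584_predicted. Of the OR probes, 188 of 729 (25.8%) had an unadjusted p under 0.05 over the 8 rats, 136 of them with the higher mean on side A, against 6.62% of all probes. The shares were 21.3% in adult rats, 135 of 155 of them higher on side A, and 8.09% in old rats, 23 of 59 of them higher on side A.

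The genes nearest to a call had small differences of 1 direction. They were picked by the smallest p among all tested probes with a gene symbol. Agreement in all 8 rats follows in part from that choice and adds no support. How many of all probes had 1 direction in all 8 rats is not given here. Thbs2, a thrombospondin of the extracellular matrix, was lower on side A in 8 of 8 rats, by 0.64 on average (SE 0.09, adjusted p = 0.474 in limma), and a second Thbs2 probe gave a mean of −0.55. Its levels on sides A and B were 4.87 and 7.62 in rat 13, 9.60 and 13.0 in rat 14, 6.52 and 11.0 in rat 15 and 9.23 and 21.8 in rat 16. In the old rats they were 1.7 and 2.2 in rat 17, 1.05 and 1.46 in rat 18, 1.72 and 2.45 in rat 19 and 1.58 and 2.57 in rat 20. All adult levels lay above all old levels, and within each rat side B was the higher. Olr630 and Olr6 were also lower on side A in 8 of 8 rats. The difference of Olr630 ranged from −1.06 to −0.13, with a mean of −0.63 (SE 0.11), and that of Olr6 from −0.46 to −0.09, with a mean of −0.31 (SE 0.05). The 3 leading genes in the other direction were higher on side A in all 8 rats: Olr1493 by 0.56, Garin1b by 0.58 and Olr1748 by 0.49 on average. The adjusted p in limma was 0.474 for these 3 and for Olr630 and Olr6. Among probes with a gene symbol, the leading genes in adult rats were Mfap5 and Cd248, a microfibril protein and a surface protein of stromal cells, with −0.74 and −0.73, Pycr1, an enzyme of proline synthesis, with −0.79, and on the other side Pym1 with 0.56, Mtfp1 with 0.33 and Olr1589 with 0.94, all at an adjusted p of 0.249 in limma. In old rats, again among probes with a symbol, Olr630 (−0.80), Olr515 (−0.64), Olr337 (−0.54), Olr796 (0.45), Art1 (0.27) and Slc43a2 (0.25) led, with adjusted p between 0.576 and 0.866 in limma. Several of these probes were dim, with Pycr1 above background on 11, Art1 on 12 and Olr796 on 8 of the 16 arrays.

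Within single rats OR genes were 2-fold apart more often in rats 15 and 16 than in the other 6. In rat 15, 261 of the 729 OR probes (35.8%) were at least 2-fold apart, against 3.14% of all expressed probes. In rat 16 these were 290 (39.8%), against 5.04% of all probes. The other adult rats showed 27 OR probes (3.70%) in rat 13, where 2.76% of all probes were 2-fold apart, and 17 (2.33%) in rat 14, where 3.56% were. In old rats the numbers were 35 (4.80%) in rat 17, 91 (12.5%) in rat 18, 32 (4.39%) in rat 19 and 47 (6.45%) in rat 20. The shares of all expressed probes in these rats were 2.86%, 2.83%, 2.09% and 2.01%. Rats 15 and 16 thus had the 2 highest OR shares, followed by rat 18, while the OR share was near the share of all probes in rat 13 and below it in rat 14. These counts within a rat compare 2 arrays and carry no replicate check.

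**Figure D1:**
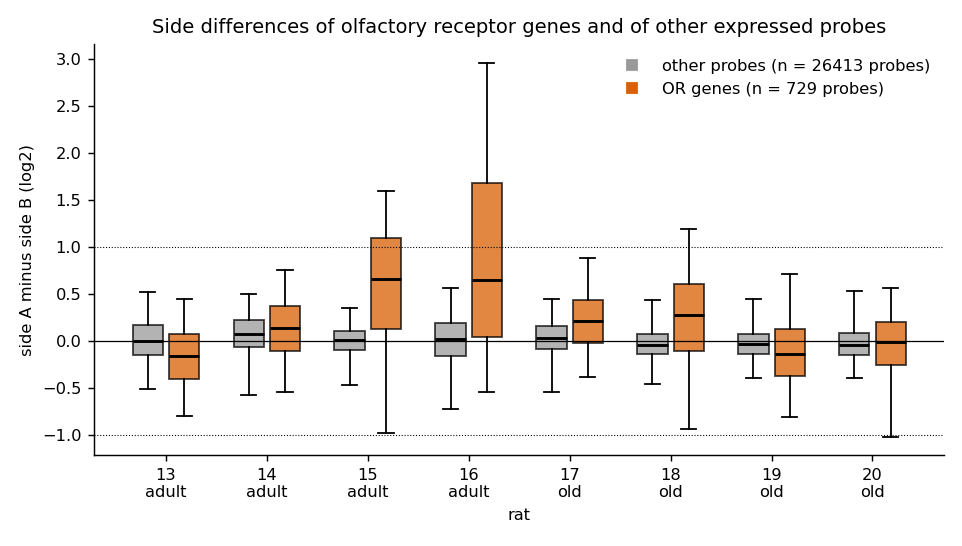
Side A minus side B (log2, vertical axis) in each of the 8 rats (horizontal axis), for the 729 expressed OR probes (orange) and the 26413 other expressed probes (grey). Boxes span the quartiles with the median as a line, whiskers reach the 5th and 95th percentiles, and dotted lines mark 2-fold; the orange boxes of rats 15 and 16, with medians of 0.66 and 0.65, stand above the rest.

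The receptors of rats 15 and 16 were mostly higher on the same lettered side. In rat 15, 225 OR probes were at least 2-fold higher on side A, where 1.78% of all probes were, and 36 on side B, where 1.35% were. In rat 16, 278 were at least 2-fold higher on side A and 12 on side B, with 2.37% and 2.68% of all probes. The median difference of the 729 OR probes was 0.66 in rat 15 and 0.65 in rat 16. It was −0.16 in rat 13, 0.14 in rat 14, 0.22 in rat 17, 0.28 in rat 18, −0.14 in rat 19 and −0.01 in rat 20, so that 5 rats had a positive and 3 a negative median. The median of all expressed probes stayed between −0.04 and 0.08. Of the OR probes 2-fold higher on side A, 180 were common to rats 15 and 16, 80.0% of the 225 and 64.8% of the 278. The 278 of rat 16 were a large part of all 729 OR probes, 39.8% of which were 2-fold apart in that rat in either direction. They also held 72.4% of the 29 such probes of rat 17 and 82.4% of the 17 of rat 19. Of the 63 of rat 18 they held 34.9%, no more than that share of all OR probes. In rats 13, 14 and 20, with 7, 9 and 10 such probes, they held 42.9%, 22.2% and 50%. Across the 729 OR probes the differences in rats 15 and 16, which share a slide but no array, had a correlation of 0.58, against 0.18 across the other probes. This is a description across genes, which are not independent replicates.

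Part of this count rests on dim probes. Restricted to OR probes above background on both sides of the rat, 195 of 629 (31.0%) were 2-fold apart in rat 15 and 98 of 462 (21.2%) in rat 16. With the 434 OR probes above background on all 16 arrays, the numbers were 108 (24.9%) and 95 (21.9%). Of all 22893 probes above background on all 16 arrays, 1.20% and 2.54% were 2-fold apart in these rats. For probes above background on both sides of a rat, the share of all probes was not computed. In an alternative the spot intensities were corrected with normexp and an offset of 50, added to every intensity, and quantile normalized. Of the 729, 20 were then 2-fold apart in rat 15 and 34 in rat 16 (2.74% and 4.66%), where 0.442% and 1.08% of all probes were. The OR medians of rats 15 and 16 were then 0.26 and 0.21, still the 2 highest of the 8 rats. In probes of a mean log2 level between 1 and 2, 31.4% of OR probes and 1.11% of other probes were 2-fold apart in rat 15, and 30.6% and 3.04% in rat 16.

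Class I receptors had larger differences than class II receptors in rats 15 and 16. The median of the 62 class I probes was 1.23 in rat 15 and 2.11 in rat 16, against 0.60 and 0.51 for the 627 class II probes. In rat 15, 61 of the 62 class I probes were higher on side A, 42 of them at least 2-fold, and in rat 16 they were 59 and 53. No class I probe was 2-fold higher on side B in either. In the other rats the class I median was −0.40 in rat 13, −0.06 in rat 14, 0.06 in rat 17, 0.29 in rat 18, −0.21 in rat 19 and 0.15 in rat 20, while that of class II was −0.12, 0.15, 0.23, 0.28, −0.13 and −0.03. Class I was therefore below class II in rats 13, 14, 17 and 19, level with it in rat 18 and above it in rat 20. The mean over the 8 rats of the class I minus class II median was 0.21, 0.01 without rat 16 and 0.03 with normexp. Among the 114 class I probes on the array, 73 were above background on side A and 42 on side B of rat 15, and 73 and 24 in rat 16. Among the 935 class II probes these were 675 and 570 in rat 15 and 674 and 418 in rat 16. Rat 13 went the other way in both classes, with 49 and 70 in class I and 566 and 656 in class II. Among class I probes above background on both sides, the medians were 1.15 in rat 15 (42 probes) and 1.81 in rat 16 (23 probes). With normexp the medians of all 62 class I probes were 0.39 and 0.49 in rats 15 and 16, again above those of class II, 0.24 and 0.18.

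Of the 4 genes of the dorsal zone list, Nqo1, Acsm4 and Robo2 had their largest differences in the same 2 rats and Sema3f, a guidance ligand, did not. The list median was 0.59 in rat 15 and 0.73 in rat 16, and between −0.14 and 0.12 in the others. Nqo1, a quinone reductase found in dorsal sensory neurons, had levels of 19.8 on side A and 10.9 on side B in rat 15 and of 16.2 and 7.53 in rat 16, differences of 0.85 and 1.1. In the other 6 rats its difference lay between −0.28 and 0.11. Acsm4, an acyl-CoA synthetase of the dorsal epithelium, had levels of 133 and 66.6 in rat 15 and of 120 and 52.4 in rat 16, differences of 1.0 and 1.2, against −0.25 to 0.13 elsewhere. Robo2, an axon guidance receptor, differed by 0.33 and 0.36 in rats 15 and 16 and by −0.09 to 0.25 elsewhere. Sema3f was the lowest of the 4 in both rats, with 0.25 in rat 15 and −0.15, higher on side B, in rat 16. Ncam2, a marker of the ventral zones, differed by −0.07 and 0.02 in these rats, and Nrp2 did not count as expressed. The mature neuron list, 12 of its 15 genes measured, had medians of 0.13 and 0.36 in rats 15 and 16, and no member was 2-fold apart in either. Its summed level was 2214 on side A and 2109 on side B of rat 15 and 1974 and 1615 in rat 16, where side B had the lowest of the 16 sums, the highest being 3643. Omp, the olfactory marker protein of mature neurons, had levels of 212 and 185 in rat 15 and 180 and 140 in rat 16. Sustentacular cell genes had medians of 0.25 and 0.32. Bone genes went the other way, with medians of −0.48 in rat 15 and −1.17 in rat 16, where 10 of 13 were at least 2-fold higher on side B. The part that any of these had in the OR difference was not tested.

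**Figure D2:**
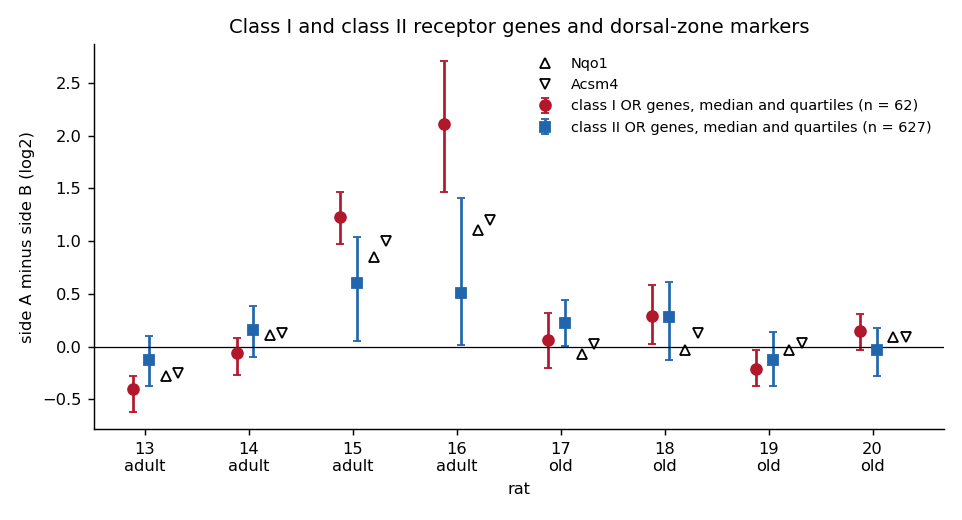
Side A minus side B (log2, vertical axis) by rat (horizontal axis) for class I OR genes (red circles, median and quartiles of 62 probes) and class II OR genes (blue squares, 627 probes). Open triangles are the markers Nqo1 and Acsm4, 2 of the 4 genes of the dorsal zone list. Class I medians of 1.23 and 2.11 in rats 15 and 16 exceed those of class II, and both markers lie at or above 0.85 in these rats only.

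The 8 OR genes printed above show several of these patterns. Olr89 had levels of 4.2 on side A and 2.09 on side B in rat 15 and 3.61 and 0.444 in rat 16. In the remaining rats its sides were close, 4.09 and 4.38 in rat 13, 2.25 and 2.31 in rat 14, 3.45 and 4.36 in rat 17, 6.08 and 4.67 in rat 18, 5.41 and 5.00 in rat 19 and 6.51 and 5.36 in rat 20. Side B of rat 16 was the lowest of its 16 levels. Olr103, the other class I receptor, and Olr481, of class II, followed it in rats 15 and 16, with differences of 1.3 and 2.65 for Olr103 and of 1.25 and 2.66 for Olr481, and lay between −0.62 and 0.78 elsewhere.

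Olr1626 ran the opposite way in 4 rats. Its levels on sides A and B were 2.62 and 10.3 in rat 15, 4.03 and 9.24 in rat 16, 1.80 and 6.69 in rat 18 and 3.50 and 11.9 in rat 20. In rat 13 they were 6.36 and 7.35, in rat 14 6.84 and 7.04, in rat 17 4.17 and 4.63, and in rat 19 5.70 and 4.36. Olr754 differed by −1.81, −0.95, −1.68 and −1.42, and Olr1645 by −2.23, −1.0, −0.90 and −1.44, in rats 15, 16, 18 and 20. In the other 4 rats Olr754 lay between −0.52 and 0.12 and Olr1645 between −0.65 and 0.42. Over the 8 rats the mean of Olr1626 was −0.86 (SE 0.30), of Olr754 −0.84 (SE 0.23) and of Olr1645 −0.75 (SE 0.27), with adjusted p of 0.634, 0.539 and 0.642 in limma. Of the 729 expressed OR probes, 36 were 2-fold higher on side B in rat 15, 28 in rat 18 and 37 in rat 20. Rats 15 and 18 shared 16 of these, 44.4% of those in rat 15 and 57.1% of those in rat 18. Rats 15 and 20 shared 14, 38.9% and 37.8% of theirs, and rats 18 and 20 shared 9, 32.1% and 24.3%. Rat 16 had 12 such probes and shared 3 with rat 15, 2 with rat 18 and 3 with rat 20.

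Olr775 and Olr1516 each stood out on 1 array. Olr775 was at 14.6 on side B of rat 16 and 1.72 on side A, while its other 14 levels lay between 1.91 and 5.78. Olr1516 was at 2.16 on side B of rat 16 and 0.366 on side A, and its other levels lay between 0.327 and 1.37. These are the 2 printed probes with shared runs of over 20 bases.

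Among the 9 chromosomes with at least 20 expressed OR probes, the medians of rats 15 and 16 were highest on chromosome 8 (78 probes), 0.96 and 1.32, and on chromosome 1 (159 probes), 0.87 and 1.1. Without class I, 93 probes of chromosome 1 had medians of 0.54 and 0.46. Chromosome 7 (56 probes) gave 0.66 and 0.78 and chromosome 3 (192 probes) 0.52 and 0.32. On chromosome 11 (24 probes) the medians were −0.17 and 0.00. Chromosome 3, with 192 of the 729 expressed OR probes, held 19 of the 36 that were 2-fold higher on side B in rat 15. Chromosome 15, with 28 of the 729, held 6. On side A of the same rat, 51 probes of chromosome 3 and 12 of chromosome 15 were 2-fold higher.

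The number of OR probes above background differed between sides by more than 100 in 3 rats, all of them adult. It was 651 on side A and 769 on side B in rat 13, 732 and 715 in rat 14, 795 and 650 in rat 15 and 793 and 469 in rat 16. In old rats it was 701 and 694 in rat 17, 793 and 706 in rat 18, 713 and 745 in rat 19 and 781 and 687 in rat 20. Side A had more in 6 of 8 rats, and side B of rat 16 had the lowest value. That array also had the fewest probes above background of any kind, 25273. Side B of rat 20 had nearly as few of any kind, 25275, with 687 OR probes. The mean difference of 65.5 (SD 133) was not larger than the spread between rats in the exact two-sided permutation test (p = 0.234, with 0.0078 the smallest that 8 pairs allow). Adult rats gave a mean of 92.0 and old rats of 39.0, each with p = 0.375 in the exact permutation test, where 4 pairs cannot go below 0.125. Counted over all probes, side A exceeded side B by 518 on average (SD 1430; exact permutation p = 0.336).

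**Figure D3:**
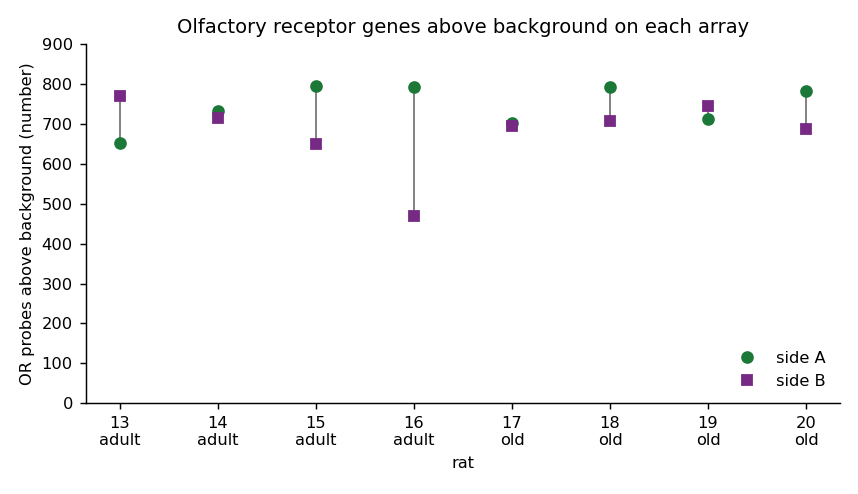
Number of OR probes above background (vertical axis, of 1112 on the array) on side A (green circles) and side B (purple squares) of each rat (horizontal axis), with a line joining the sides of a rat. Most arrays lie between 650 and 795, and side B of rat 16 is at 469.

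OR probes were detected on 1 side of a rat only more often than other probes. Of the probes above background on at least 1 side, the share on 1 side only was 17.0% for OR and 7.63% for other probes in rat 13, 10.6% and 6.94% in rat 14, 21.4% and 5.60% in rat 15 and 41.9% and 10.6% in rat 16. In old rats the shares were 11.2% and 6.34% in rat 17, 13.8% and 7.50% in rat 18, 9.66% and 6.19% in rat 19 and 14.4% and 8.99% in rat 20. The OR share was the higher in 8 of 8 rats, by 10.0 percentage points on average, with p = 0.0078 in the exact permutation test, the smallest it can give. When a probe only had to be positive and significant against background, the gap was 2.62 points (exact permutation p = 0.078). Within bins of level the gap differed between rats. At a mean log2 level between −2 and −1 the OR share was the higher in 6 of 8 rats, with 42.2% of OR and 30.2% of other probes in rat 13, 22.7% and 12.1% in rat 14, 47.1% and 15.0% in rat 15 and 87.4% and 43.2% in rat 16. In old rats the shares in this bin were 28.4% and 27.6% in rat 17, 24.0% and 27.8% in rat 18, 23.3% and 21.8% in rat 19 and 26.5% and 40.1% in rat 20. Below −2 the median share over rats was 77.3% for OR and 69.96% for other probes, and between −1 and 0 it was 1.71% and 3.25%, with 49.7% and 5.58% in rat 16.

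The overall distance between sides was set beside that between rats. The SD of the differences between the 2 arrays of a rat lay between 0.404 and 0.513 in adult and between 0.366 and 0.411 in old rats. Between arrays of different rats on 1 slide it had a median of 0.450 in adult and 0.456 in old rats, and between slides of 0.590 and 0.452. Old rats had fewer probes 2-fold apart than adult rats, 664 against 983 on average, but the exact permutation test of 4 against 4 gave p = 0.0857, with 0.0286 the smallest it allows. The same count over probes above background on all 16 arrays had an old minus adult difference of −223.8 (exact permutation p = 0.0286), and without rat 13 the difference over expressed probes was −397.4 (exact permutation p = 0.0286). Without rat 16 it was −190.4 (exact permutation p = 0.171).

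When rats rather than sides were compared, 25 of 27142 probes (0.0921%) differed between the adult rats in limma's F test, none of them an OR probe. At an unadjusted p under 0.05 were 95 OR probes (13.0%) and 7086 of all probes (26.1%). The 4 leading genes, Zbp1, Irgm, Ifgga2l1 and Ifi47, are interferon-inducible, and each was high on both sides of rat 15. Irgm, an immunity-related GTPase, was at 33.6 on side A and 32.9 on side B of rat 15 and between 1.75 and 4.65 on the 6 other adult arrays. Zbp1, a sensor of foreign nucleic acid, was at 5.68 and 6.02 in rat 15 and between 0.277 and 0.653 in the other adult rats. Ifi47 was at 18.0 and 18.9, against 0.819 to 1.97, and Ifgga2l1 at 18.6 and 19.6, against 0.857 to 2.12. The 2 sides of rat 15 differed by no more than 0.08 in each of these 4 genes, whose adjusted p lay between 0.0043 and 0.0063 in limma. With any 1 adult rat left out no probe was called, and with the slide as a block or in the plain F test there were 0 calls as well. Old rats gave 0 calls (0.0%) in limma, 0 in the plain F test, 6827 probes (25.2%) at an unadjusted p under 0.05, 240 of them OR probes (32.9% of 729), and a smallest adjusted p of 0.168.

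Secreted and inflammatory proteins were among the genes that varied most between the sides of a rat. As a measure that does not depend on which side is named A, the within-rat SD was computed for the 22893 probes above background on all 16 arrays. Its median was 0.34 for the 434 OR probes and 0.13 for the 22459 others, and 99 OR probes (22.8%) and 422 others (1.88%) had an SD of 0.5 or more. At a mean log2 level above 2, the SD over OR probes of the side difference had a median over rats of 0.45, against 0.23 for other probes. Among genes with a symbol the 12 highest within-rat SDs belonged to Cxcl2 (1.51), Itih3 (1.37), Trdn (1.36), Ccl3 (1.35), Camk2b (1.25), Camkv (1.24), Muc5ac (1.20), Vtn (1.19), Il1b (1.11), Crtac1 (1.11), Il1rn (1.1) and Car4 (1.09).

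Cxcl2, a chemokine that attracts neutrophils, was at 12.9 on side A and 346 on side B of rat 17, and at 190 and 17.3 in rat 19. In the other rats its sides were within 2.33-fold, 0.590 and 0.373 in rat 13, 0.593 and 0.547 in rat 14, 1.45 and 1.3 in rat 15, 0.514 and 0.655 in rat 16, 2.43 and 5.67 in rat 18 and 0.912 and 0.940 in rat 20. The 4 levels of rats 17 and 19 were the highest of the 16. Il1b, the cytokine interleukin 1 beta, was at 26.1 and 257 in rat 17 and at 187 and 27.2 in rat 19, and between 1.74 and 17.2 elsewhere. Il1rn, which blocks the receptor of Il1b, was at 6.27 and 69.8 in rat 17 and at 42.7 and 7.22 in rat 19, and Ccl3, another chemokine, at 4.99 and 88.8 and at 39.9 and 4.05. Car4, a carbonic anhydrase, was at 2.57 and 26.2 and at 11.1 and 2.0. All of these were highest on side B of rat 17 and next highest on side A of rat 19. Of the 9 measured genes of the inflammation list, 6 were at least 2-fold higher on side B of rat 17, where 1.86% of all probes were, with a list median of −2.17. On side A of rat 19 they were 5, where 1.27% of all probes were, with a median of 1.05. In the other rats the list median lay between −0.29 and 0.12. The summed level of the list was 143 on side A and 812 on side B of rat 17, 526 and 274 in rat 19, and 31.4 to 111 on the 12 other arrays.

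Blood cell markers moved in the same 2 rats. The 4 measured red cell genes had a median of −1.12 in rat 17 and 1.55 in rat 19, against −0.34 to 0.64 elsewhere, and Hbb, a beta globin, was at 59.0 and 147 in rat 17 and at 177 and 49.97 in rat 19. Their summed level was 147 and 372 in rat 17 and 400.1 and 113 in rat 19. The 4 measured neutrophil genes had medians of −1.04 and 1.35 in rats 17 and 19, but also of −1.29 in rat 14 and 1.67 in rat 15, where the inflammation list had 0.12 and −0.01. S100a8, a calcium-binding protein of neutrophils, was at 12.8 and 25.0 in rat 17, 9.61 and 3.52 in rat 19, 1.12 and 3.20 in rat 14 and 7.83 and 2.42 in rat 15. Mpo, Elane, Ngp, Cxcr2, Mmp8 and Ltf of the neutrophil list did not count as measured. The summed level of the 4 that did was 46.6 and 90.8 in rat 17, 36.9 and 17.8 in rat 19, and 5.27 to 24.0 on the other 12 arrays. What part blood had in the differences of rats 17 and 19 was not tested.

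Carriers of odorants and pheromones, known from nasal glands, showed the largest differences among the named genes. Obp1f, an odorant-binding protein, was at 923 on side A of rat 19 and not well above background on side B, which makes it at least 3642-fold higher on side A. In rat 17 it was at 14.5 on side B and not well above background on side A, at least 62.2-fold higher on side B. In rat 15 its levels were 66.7 on side A and 0.958 on side B, 69.6-fold apart, and in rat 14 they were 0.236 and 3.20, 13.6-fold higher on side B. In the other rats they were within 2.28-fold, 1.15 and 1.24 in rat 13, 17.9 and 19.0 in rat 16, 3.02 and 1.33 in rat 18 and 4.29 and 5.32 in rat 20. Side A was thus far higher in rats 15 and 19 and side B in rats 14 and 17. Such bounds set the brighter side against the lowest level that was well above background on the dimmer array, or against the dim probe's own level where that was higher, as for Obp1f in rat 19. A second Obp1f probe was at least 1594-fold higher on side A of rat 19, at least 17.1-fold higher on side B of rat 17 and 99.3-fold higher on side A of rat 15.

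Other lipocalins parted in the same rats. Mup4l1 and Mup5, lipocalins of the major urinary protein family, were at 159 and 151 on side A of rat 19, at least 790-fold and 749-fold higher there, and at least 16.8-fold and 29.9-fold higher on side B of rat 17. In rat 15 they were 44.5-fold and 35.5-fold higher on side A. A second Mup5 probe, above background on 7 arrays, was 4.94-fold higher on side A of rat 19 and 1.07-fold apart in rat 17. The probe LOC259246, which carries no current symbol and was chosen after its values were seen, was above background on all 16 arrays and had the largest within-rat SD of those probes, 2.87. Its levels were 661 and 1.66 in rat 19, 1.18 and 35.5 in rat 17, 36.2 and 1.45 in rat 15 and 0.540 and 5.34 in rat 14, and its sides were within 1.45-fold in the 4 other rats. These genes belong to a family of close copies, so a probe may read several of them. Obp2b, another odorant-binding protein, was at 390 on side A of rat 19 and 0.548 on side B, 710.4-fold apart, and Csap1 at 455 and 0.615, 741-fold apart. In rat 17 Obp2b was at least 26.5-fold higher on side A, opposite to Obp1f, and in rats 14 and 16 it was 10.0-fold and 7.88-fold higher on side B. Csap1 stayed within 2.12-fold in rats 13 to 18, and in rat 20 neither side was well above background for either gene. Dmbt1, a mucosal defence protein, was at 113 on side A of rat 19, at least 562-fold higher than on side B, and 7.90-fold higher on side B of rat 18. Muc5ac, a gel-forming mucin, was at 32.1 and 10.0 in rat 19, 4.53 and 1.0 in rat 20, 1.26 and 7.92 in rat 18 and 0.773 and 4.0 in rat 13. Of the 10 measured genes of the gland list, 4 were 2-fold higher on side A of rat 19, where 1.27% of all probes were, with a median of 0.66. In the other rats the list median lay between −0.30 and 0.15. Still, 3 members were 2-fold apart in rat 18, 2 each in rats 13, 15, 16 and 20 and 1 each in rats 14 and 17. Of all probes, 2.01% to 5.04% were 2-fold apart in these rats.

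**Figure D4:**
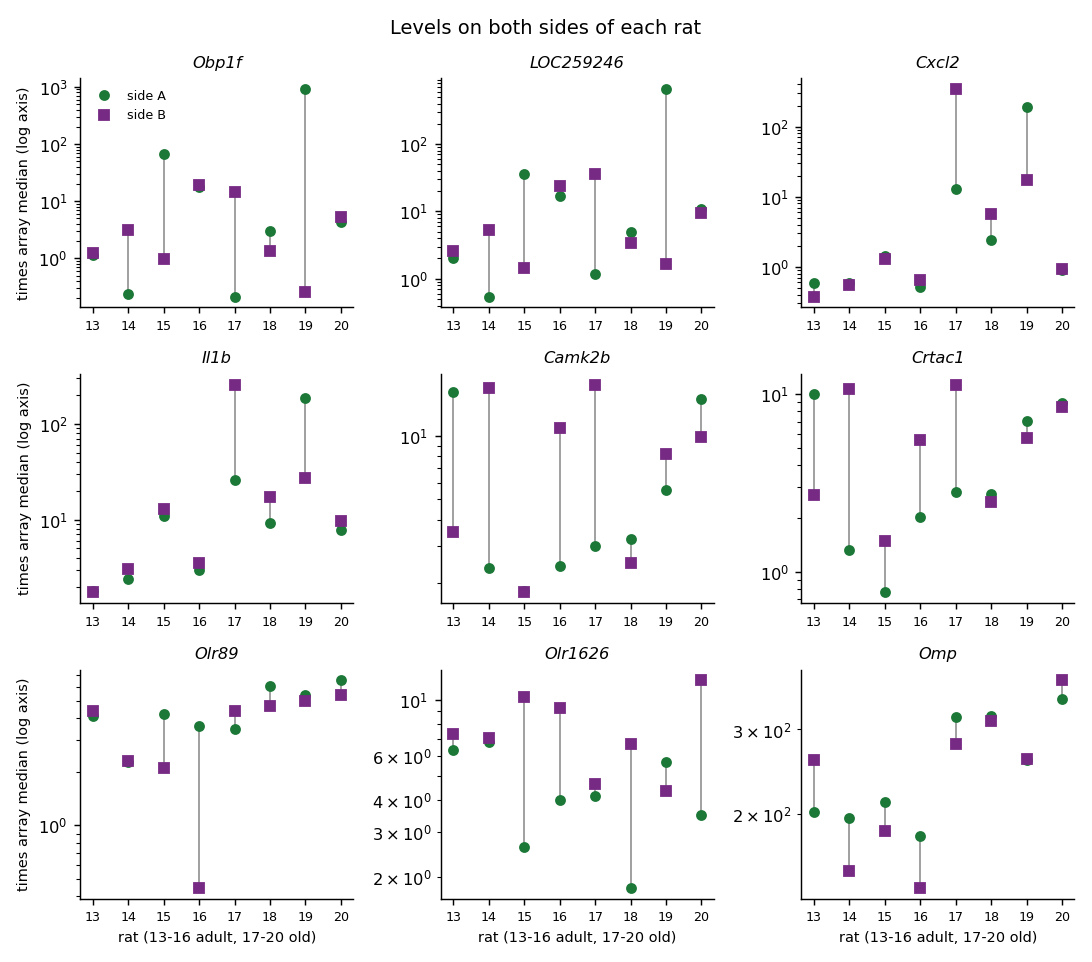
Level of 9 genes (multiples of the array median, log axis) on side A (green circles) and side B (purple squares) of each rat (horizontal axis), with a line joining the sides. Obp1f and LOC259246 part in rats 14, 15, 17 and 19, Cxcl2 and Il1b in rats 17 and 19, Camk2b and Crtac1 in rats 13, 14, 16 and 17, Olr89 in rats 15 and 16 and Olr1626 in rats 15, 16, 18 and 20, and Omp shows smaller gaps.

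Camk2b, Camkv, Crtac1, Gad1 and Mog were higher on side A of rat 13 and on side B of rats 14, 16 and 17. Camk2b, a protein kinase subunit of neurons, had levels of 16.2 and 3.49 in rat 13, 2.34 and 16.9 in rat 14, 2.41 and 10.9 in rat 16 and 3.00 and 17.6 in rat 17. It was at 1.83 and 1.80 in rat 15, 3.23 and 2.50 in rat 18, 5.51 and 8.23 in rat 19 and 15.0 and 9.91 in rat 20. Camkv, a related synaptic protein, differed by 1.84, −3.44, −2.11 and −1.69 in rats 13, 14, 16 and 17, and Crtac1 by 1.89, −3.01, −1.45 and −2.0. Gad1, which makes the inhibitory transmitter GABA, differed by 1.18, −2.48, −1.63 and −1.37, and Mog, a protein of central myelin, by 1.77, −2.75, −1.80 and −1.84, though both were below background on some arrays. In rat 15 Gad1 differed by −1.42 and Mog by −0.53. Gad2, another enzyme of GABA synthesis, differed by 0.32, −2.40, 0.39 and −1.28 in rats 13, 14, 16 and 17, and most in rats 15 (−5.41) and 18 (3.05), with 14 of the 16 arrays above background. Trdn, known from the calcium release of muscle, was at 2.77 and 0.319 in rat 13, 0.356 and 3.62 in rat 14 and 0.411 and 2.31 in rat 16. In Camk2b, Camkv, Crtac1, Gad1, Mog and Trdn rat 13 was opposite to rats 14, 16 and 17.

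The brain and olfactory bulb list, 6 of its 9 genes measured, had a median of −1.92 in rat 14 with 4 members at least 2-fold higher on side B, where 2.58% of all probes were, and of 0.54 in rat 13 with 2 members at least 2-fold higher on side A, where 1.26% of all probes were. In rat 17 its median was −0.87, and between −0.48 and 0.15 in the others. Cdhr1 and Calb1 of this list, which the epithelium may share, differed by at most 0.47 and 0.22 in any rat, and Slc17a7, Tbr1 and Eomes did not count as measured. Its summed level, which these shared genes dominate, was 584 on side A and 680 on side B of rat 14 and 837 and 604 in rat 13. Skeletal muscle genes had a median of −1.29 in rat 14, where 6 of 8 were at least 2-fold higher on side B, against the same 2.58% of all probes, among them Tnni2, a fast troponin, at 0.756 and 5.95. In the other rats the median lay between −0.22 and 0.32. Of the muscle list Acta1, Ckm, Myh1, Myh2, Myh4, Myl1, Mylpf and Casq1 did not count as measured. Glia and myelin genes had a median of −1.08 in rat 14, with 5 of 9 at least 2-fold higher on side B, and between −0.59 and 0.43 elsewhere. Mbp, a major myelin protein, was at 1.64 and 8.53 in rat 14 and at 3.98 and 1.74 in rat 13. Whether such tissue was taken along with a side was not tested.

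Itih3, Vtn and Gfap made up another pattern, in which rats 15 and 18 stood opposite to each other. Itih3, a protease inhibitor heavy chain, was at 0.416 and 3.98 in rat 15, 5.66 and 32.1 in rat 17, 4.97 and 27.3 in rat 14 and 8.81 and 2.18 in rat 18. Vtn, the adhesion protein vitronectin, was at 0.741 and 5.17 in rat 15, 4.13 and 10.6 in rat 17 and 7.99 and 1.64 in rat 18, and Gfap, an intermediate filament of glia, differed by −1.65, −1.34 and 1.33 in these rats.

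Bone genes had a median below 0, higher on side B, in 7 of 8 rats, though by 0.01 only in rat 14. The 13 measured genes had a median of −0.99 in rat 13, −0.01 in rat 14, −0.48 in rat 15, −1.17 in rat 16, −0.45 in rat 17, −0.24 in rat 18, 0.15 in rat 19 and −0.45 in rat 20. At least 2-fold higher on side B were 6 members in rat 13 and 10 in rat 16, where 1.5% and 2.68% of all probes were. The summed level of the list was 2975 and 5671 in rat 13 and 4901 and 9993 in rat 16. Col1a1, the main collagen chain of bone, had levels of 694 and 2115 in rat 13, 1135 and 1491 in rat 15, 1521 and 3410 in rat 16, 217 and 326 in rat 17, 96.7 and 180 in rat 18 and 91.7 and 141 in rat 20. In rat 14 it was at 1898 and 1901 and in rat 19 at 186 and 153. Col1a2, the partner chain, differed by −0.01 in rat 13 and −0.39 in rat 16. Mmp13, a collagenase of bone, differed by −1.06 and −1.31 in rats 13 and 16 and lay between −0.97 and 0.04 elsewhere, and Runx2, a transcription factor of bone-forming cells, between −0.54 and 0.34. Cartilage genes had medians between −0.42 and 0.05. Thbs2, Mfap5 and Cd248 had their largest differences in rat 16, as did Alpl of the bone list (−1.62) and Comp of the cartilage list (−1.93). The part of bone in these was not tested. Macrophage genes had medians between −0.34 and 0.33.

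**Figure D5:**
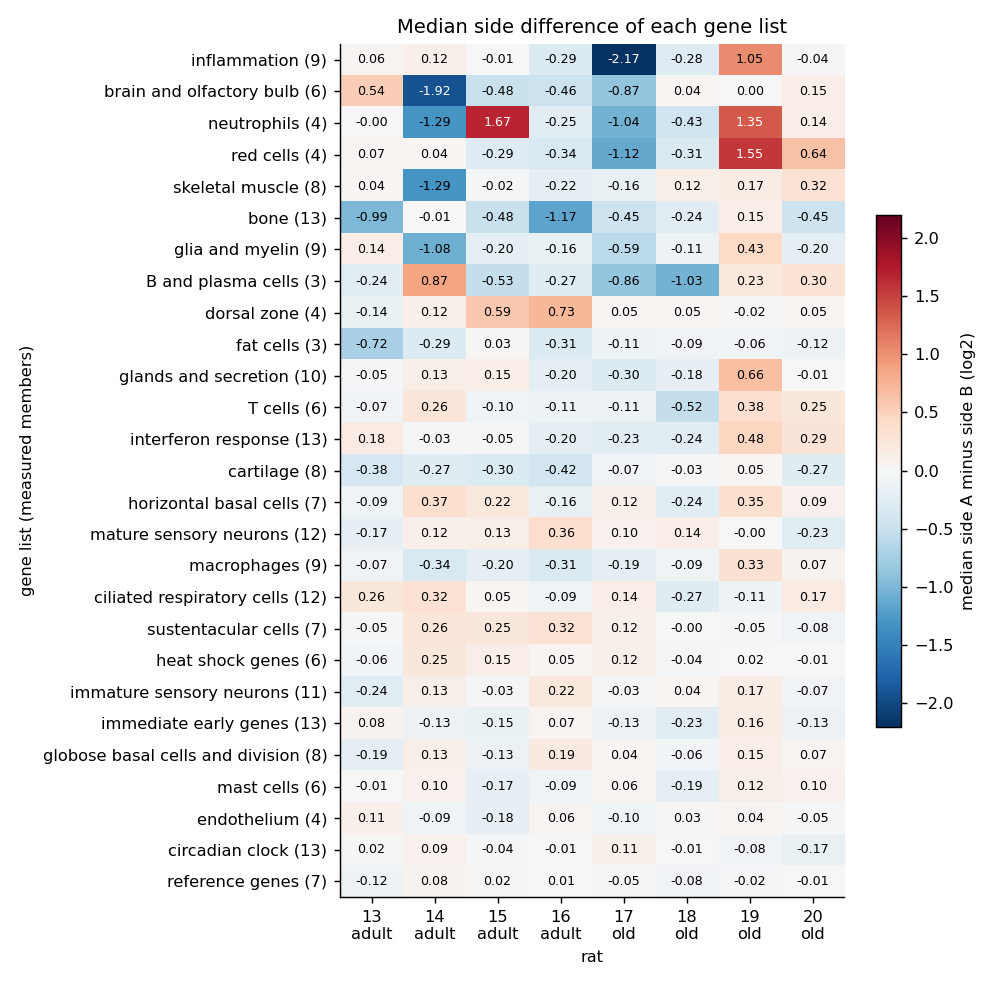
Median of side A minus side B (log2, colour and printed value) for each gene list with at least 3 measured members (vertical axis, number of members in brackets) in each rat (horizontal axis). The strongest colours are inflammation in rat 17 (−2.17), brain and olfactory bulb in rat 14 (−1.92) and neutrophils in rat 15 (1.67), and reference genes stay between −0.12 and 0.08.

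Lists of the epithelium's own cells had small medians in all 8 rats. The mature neuron list had medians between −0.23 and 0.36, the immature neuron list between −0.24 and 0.22, and sustentacular cell genes between −0.08 and 0.32. Globose basal and dividing cells lay between −0.19 and 0.19 and horizontal basal cells between −0.24 and 0.37. No member of the last 4 lists was 2-fold apart in any rat, and of the mature neuron list 1 was, Rtp2, a chaperone of receptors, in rat 20 by 1.49, with Rtp2 above background on 6 of the 16 arrays. Ciliated respiratory cell genes had medians between −0.27 and 0.32. Reference genes lay between −0.12 and 0.08, with Gapdh between −0.14 and 0.13 and Hprt1 between −0.13 and 0.19. Circadian clock genes lay between −0.17 and 0.11, heat shock genes between −0.06 and 0.25, mast cell genes between −0.19 and 0.12 and immediate early genes between −0.23 and 0.16. Interferon response genes had medians between −0.24 and 0.48, T cell genes between −0.52 and 0.38, endothelium between −0.18 and 0.11, and fat cell genes, 3 of 7 measured, between −0.72 and 0.03. Single members differed more. Of 13 interferon genes, 3 were 2-fold apart in rat 17, 1 by −2.76, and 3 in rat 19, 1 by 2.61, against 2.86% and 2.09% of all probes. Of 6 T cell genes, 3 were in rat 13, from −3.06 to 2.86, against 2.76%. An immediate early gene differed by −3.03 in rat 18. B and plasma cell genes, of which 3 of 11 were measured, reached 0.87 in rat 14 and −1.03 in rat 18.

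The OR median of each rat was set against the median of the mature neuron list. Pearson's r was 0.81 (exact permutation p = 0.0187) and Spearman's rho 0.83 (exact permutation p = 0.0154), and this was the only relation of its kind computed, so that no adjustment applies. Without rats 13 and 20, the 2 farthest from the median of the neuron list, r was 0.78 (exact permutation p = 0.0625, n = 6). Without rat 16 it was 0.70 (exact permutation p = 0.0827), and on probes above background on all 16 arrays 0.69 (exact permutation p = 0.0582). Rats that shared a slide had similar OR medians in the pairs 15 and 16, 17 and 18, and 19 and 20, so these points may not be independent. With slide means removed r was 0.40 (exact permutation within slides, p = 0.875, where 4 slides cannot go below 0.125). Both medians of a rat come from the same 2 arrays.

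The 3 genes with the largest difference were taken in each rat, among probes above background on both of its arrays. In rat 13 they were Gzma, a granzyme of cytotoxic cells, at 3.64 and 0.211, with Trdn (3.12) and Cst7 (−3.07). In rat 14 they included Obp1f (−3.76) and Slitrk3, a synaptic adhesion protein (−3.52), and in rat 15 Obp1f (6.12), Mup4l1 (5.48) and Mup5 (5.15). Rat 16 had Ctsg, a neutrophil protease (−5.32), Nuak1 (−3.64) and Myo16 (−3.15), and rat 17 Cxcl2 (−4.74), Ccl3 (−4.15) and Il1rn (−3.48). In rat 18 they were Dmbt1 (−2.98), Olr1200 (−2.96) and Gckr (−2.71). In rat 19 they were Csap1 (9.53), Obp2b (9.47) and Cxcl2 (3.46), and in rat 20 Olr1393 (−2.38), Muc5ac (2.18) and Kiss1r (−2.14). Several of these genes were dim on their lower side, such as Ctsg at 0.172 and Nuak1 at 0.186 in rat 16. So were Olr1200 at 0.255 and Gckr at 0.238 in rat 18 and Kiss1r at 0.239 in rat 20. Others were brighter there, such as Cxcl2 at 12.9 in rat 17. Counted over rats, 305 of the 729 OR probes (41.8%) and 23105 of 26413 other probes (87.5%) were 2-fold apart in no rat. OR probes 2-fold apart in 2 rats numbered 190 (26.1%), against 2.82% of other probes, and in 3 rats 54 (7.41%), against 1.18%. In 4 rats they were 12 (1.65%, against 0.731%), and in 5 and in 6 rats 4 each (0.549%, against 0.284% and 0.151%). In 7 rats they were 1 and in all 8 rats 0, where 5 and 1 of the other probes were. These counts lean on rats 15 and 16, which share a slide and had 180 OR probes 2-fold higher on side A in common. The 180 may include probes that were also 2-fold apart in further rats.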

How the data were processed

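RNA from both sides of the olfactory epithelium of 4 adult and 4 old rats was hybridized to 1-color Agilent arrays by the authors, after a check of RNA integrity. The authors extracted the signals with Feature Extraction (9.5.1.1 for adult, 9.5.3.1 for old arrays). The deposited files hold a background-subtracted intensity per spot, the mean and background intensity, and flags. A matrix deposited alongside gives each intensity as a ratio to its array median and to a constant of the probe, and served as an alternative only.

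Control spots were left out, spots of a probe averaged without 1727 flagged outliers, intensities divided by the array median, values under 0.01 set to 0.01 and log2 taken. A probe counted as above background where its spot passed the significance, brightness and uniformity flags of Feature Extraction without saturation. Dim values have no order at the floor, and the number of arrays limits the precision. Each side is 1 RNA sample on 1 array, with no repeat array. OR genes are those whose array name begins with Olr. Class came from RefSeq symbols, and 10726 of 24824 accessions matched a symbol.

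Sides were compared with limma 3.58.1 (R 4.3.3) with the rat as a fixed block, since A and B come from the same animal, and Benjamini-Hochberg adjustment over 27142 probes. The fit recovered known changes when tested on simulated data. Single values were compared with exact permutation tests. Alternatives were the 75th percentile, quantile normalization, normexp with quantile normalization, the matrix, other filters and thresholds, no block, the methods' t-test, slide as a block and leaving out each rat.

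Genes were named, with 1 probe a gene, by the largest difference in each rat (3), the largest within-rat SD (12 genes and 8 OR genes), the smallest p of each comparison (3 in each direction, 4 for rats), fixed neuron and reference genes, and the members with the largest within-rat SD of each of 28 lists. LOC259246, Alpl, Runx2, Col1a2, Sema3f, Cdhr1 and Calb1 were added after their values were seen. An item named by the rule is not reported here. The members, lists and comparisons were chosen with earlier results of these data known.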

Additional observations from a re-analysis of the deposited data

Results flagged for a closer look

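Values per rat, the medians of the gene lists among them, were examined for 1 rat far from the other 3 of its age. Of 80 such groups 3 stood apart, all of them list medians, where chance gives about 1 in 20, a rate that 3 of 80 does not exceed. The T cell list was highest in rat 14 among adult rats, at 0.26, with the 3 others between −0.11 and −0.07. The brain and olfactory bulb list was lowest in rat 17 among old rats, at −0.87, with the others between 0.00 and 0.15. The dorsal zone list was lowest in rat 19 among old rats, at −0.021, with the other 3 at 0.05, a gap of less than 0.1 on the log2 scale. The cause of these was not tested.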

How the results depend on the processing

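The side comparisons gave 0 calls under every alternative run, also without the replicate block (no block: 0 calls in all 4 comparisons) and with the paired t-test, except that leaving out 1 rat gave 0 to 1 calls in old rats: 1 probe without rat 17, another without rat 18 and another without rat 19, none with a current gene symbol. The mean differences of the named genes kept direction and call in 354 of 354 values. None of these genes was called to begin with, and the size of a difference is not covered by this count. The 25 calls between adult rats became 150 with the 75th percentile, 95 with quantile normalization, 303 with normexp and quantile normalization, 3 without the filter on dim probes, 160 on probes above background on all 16 arrays, 329 with a variance trend and robust prior, 673 at an adjusted p under 0.05, 0 with the slide as a block, 0 in the plain F test, 0 to 0 when leaving out each rat, and 0 without array 16B (chosen after seeing the data). The cause was not tested. The share of OR probes on 1 side only lost its call when positive and significant signals sufficed (2.62 points). The fall in the number of probes 2-fold apart from adult to old rats was −223.8 on probes above background on all 16 arrays. Leaving out each rat gave −397.4, without rat 13, to −190.4. On all 16 arrays and without rat 13 the exact permutation p was 0.0286, not under 0.01. OR probes 2-fold apart in rats 15 and 16 fell from 261 and 290 to 20 and 34 with normexp and to 108 and 95 on probes above background on all 16 arrays (both chosen after seeing the data; fewer probes enter the latter). The correlation of OR and neuron medians was 0.69 on those probes and lay between 0.70, without rat 16, and 0.88, without rat 15, and was 0.40 with slide means removed (chosen after seeing the data). Of 51 list medians under the 3 scalings, 47 moved by less than the spread and 4 by more. Probes near background limit what can be ordered between sides.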
